A study of Mus musculus with 15 samples.

Results

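Of 45777 features in the count tables of 2 generations of mice, 19308 were tested and 15230 were well expressed, with a mean of at least 1 CPM (read counts scaled to the normalized size of each library) over all 15 striatal libraries. In 7307 of these (48% of the well expressed genes), the difference between offspring of methamphetamine (METH) males and offspring of saline males pointed one way in the F1 generation and the other way in the F2 generation. They are the genes described here, and they were chosen by nothing but their level and the 2 signs. In 3979 of them (26.1% of the well expressed genes) expression was higher in F1 METH than in F1 saline mice and lower in F2 METH than in F2 saline mice. The reverse held for 3328 (21.9%). Another 3173 genes (20.8%) were higher and 4750 (31.2%) were lower in METH mice of both generations.

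Striatum was taken from males of the outbred ICR stock at 7 weeks. No allele or transgene is given for any group, and the labels name no treatment of the F1 and F2 mice themselves. Their founders were males that were 6 weeks old when they received either METH at 5 mg/kg or saline at 10 mL/kg by injection under the skin, over 21 days, and then sired litters with untreated females. Sons of these founders formed F1 saline (n = 4) and F1 METH (n = 3). Sons that F1 males had with untreated females formed F2 saline (n = 4) and F2 METH (n = 4). The labels tie no animal to a founder or litter, so the p-values set the group differences only against the spread between these animals. Each generation has its own deposited table, and a difference in level between generations cannot be told apart from a difference between the tables. The contrast tested was the F2 effect minus the F1 effect, where an effect is the log2 fold change of METH against saline within a generation, and this contrast cancels a shift shared by both groups of a generation.

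The striatum is the input nucleus of the basal ganglia and consists mainly of GABAergic spiny projection neurons that receive dopamine from the midbrain. METH releases dopamine from its terminals there. Around these neurons lie myelinating oligodendrocytes, astrocytes that take up glutamate and supply serine and lactate, microglia, and the endothelium of the blood-brain barrier. Type I and type II interferons act on all of these cells and induce genes for sensing foreign nucleic acids and presenting antigens.

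Total counts ran from 31563806 to 50573906 per library. Although the labels name a neuronal cell type, markers of other cells were present beside neuronal ones. The 40 spiny projection neuron markers summed to 17273 to 28617 CPM, and the 26 myelin and oligodendrocyte markers to 8027 to 15573 CPM. Slc17a7, the vesicular glutamate transporter of cortical neurons, was above 100 CPM in 5 libraries, which were replicates 1 and 3 of F1 saline, the third replicate of F1 METH, the fourth of F2 saline and the second of F2 METH. It was at 9.41 to 97.5 CPM elsewhere. Erythrocyte genes summed to 839 CPM in F1 saline replicate 4 and to at most 192 CPM in any other library.

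Which genes responded differently to the founder's METH in the 2 generations was asked with edgeR's quasi-likelihood test over all 15 libraries. It called 1 of 19308 genes at an adjusted p under 0.05 (0.00518%), Aox4, which lies below the level limit and is described last. None of the 7307 genes of opposite sign was called, and the smallest adjusted p among them was 0.854. An unadjusted p under 0.05 was found for 943 of the genes tested (4.88%; 3.16% negative and 1.72% positive, where negative means a lower effect in F2). It was found for 802 of the well expressed genes (5.27%; 3.59% negative and 1.68% positive). Of these, 767 were genes of opposite sign, 528 of them higher in F1 METH and lower in F2 METH mice and 239 the reverse. Opposite signs make a large difference more likely by construction, so the share among them was not read as a result. DESeq2 called 7 genes for the same contrast. Its Benjamini-Hochberg adjusted values were below the threshold for Prex2 (DESeq2 adjusted p = 0.0205), Tmem204 (0.0330), Prom1 (0.0403), Il33 (0.0428), Phgdh (0.0428), the predicted gene Gm20517 (0.0263; log2 fold changes of -3.03 in F1 and 0.42 in F2) and Aox4 (0.00364). All but Aox4 were well expressed genes of opposite sign. Limma-voom called 0 genes.

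Many of the opposite signs rested on small values. In 3670 of the 7307 genes (50.2%) the effect was under 0.05 log2 in size in at least 1 generation. The median absolute difference between the effects was 0.20 log2, and its 95th percentile was 0.71. Across the well expressed genes, Pearson's r between F1 and F2 effects was 0.00865 and Spearman's rho 0.0157. These values are across genes of the same libraries, and genes are not independent replicates. At the level limit, 93 of the genes lay within 10 percent above a mean of 1 CPM, and 108 genes of opposite sign lay within 10 percent below it.

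**Figure D1:**
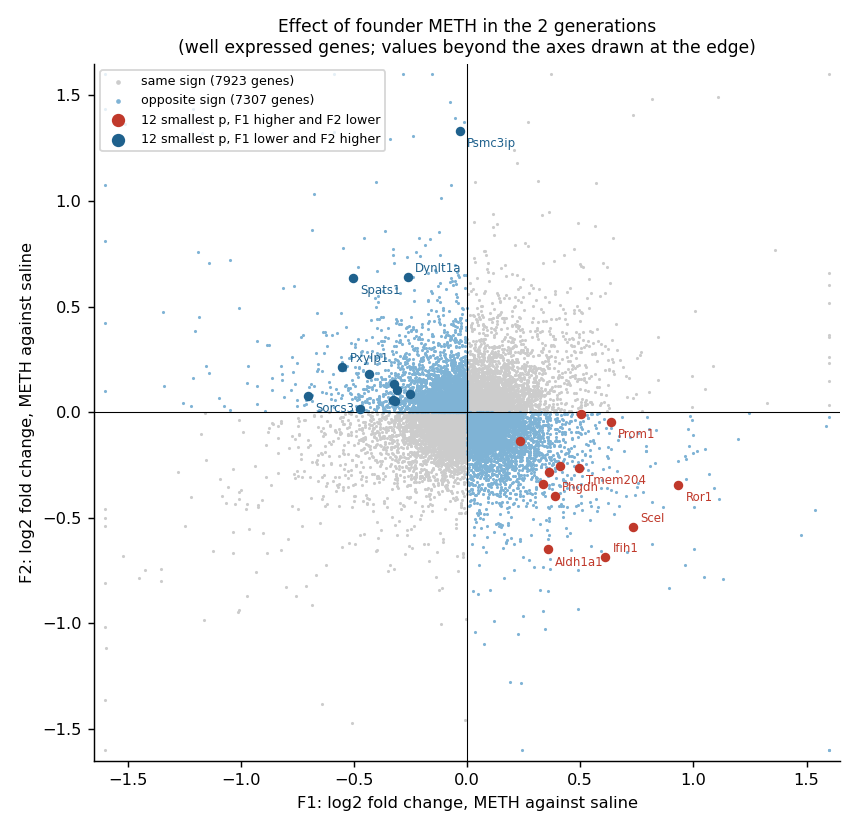
Each point is a well expressed gene, with its log2 fold change of METH against saline in F1 on the x axis and in F2 on the y axis, and values beyond the axes drawn at the edge. The 7307 genes of opposite sign fill the upper left and lower right, and the 24 larger points are the 12 genes per direction with the smallest unadjusted p (predicted genes, clones, pseudogenes and noncoding loci left out), of which some, such as Prom1 and Psmc3ip, lie close to an axis.

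Among genes higher in F1 METH and lower in F2 METH mice, the smallest p for the difference belonged to Prex2 (gene ID 109294, chr1:10993273-11303683 in GRCm38.p6, the build of all coordinates given), which encodes an exchange factor that activates the GTPase Rac. Prex2 was at 56.3, 58.7, 48.3 and 54.6 CPM in F1 saline and at 61.3, 66.2 and 82.5 CPM in F1 METH mice. In F2 the order was turned around, with 88.1, 79.3, 89.7 and 79.9 CPM in saline and 69.1, 71.0, 70.0 and 67.0 CPM in METH mice. The groups overlapped in neither generation. Its log2 fold change was 0.36 (SE 0.093) in F1 and -0.28 (SE 0.086) in F2, a difference of -0.64 (SE 0.13; edgeR adjusted p = 0.854). Means of 70.0 ± 11.1 CPM (SD, n = 3) in F1 METH and 69.3 ± 1.68 CPM (SD, n = 4) in F2 METH stood beside 54.5 ± 4.44 CPM (SD, n = 4) in F1 saline and 84.3 ± 5.39 CPM (SD, n = 4) in F2 saline. The saline groups of the 2 tables lay further apart than the METH groups.

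Phgdh (gene ID 236539, chr3:98313171-98339969), the first enzyme of serine synthesis and in brain mainly astrocytic, had the same form. F1 saline libraries were at 45.7, 51.3, 55.0 and 68.5 CPM, and F1 METH libraries at 69.3 to 73.9 CPM. F2 saline libraries were at 74.0, 66.2, 84.2 and 71.5 CPM, and F2 METH libraries at 58.4, 48.4, 52.7 and 65.2 CPM. Again no library of one group reached into the other, although F1 saline replicate 4 and F2 METH replicate 4 came within 1 CPM of it. The Phgdh effects were 0.39 (SE 0.13) and -0.40 (SE 0.12), a difference of -0.79 (SE 0.17; edgeR adjusted p = 0.854).

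Il33 (gene ID 77125, chr19:29925113-29960718), an alarmin cytokine that glia release on injury, was at 23.1, 21.0, 19.8 and 20.2 CPM in F1 saline and 22.6, 29.6 and 27.2 CPM in F1 METH mice. It was at 31.2, 23.4, 28.4 and 26.0 CPM in F2 saline and 21.0 to 22.8 CPM in F2 METH mice. F1 METH replicate 1 lay below the highest F1 saline library, whereas the F2 groups were apart. Its effects were 0.33 (SE 0.10) and -0.34 (SE 0.097). Tmem204 (gene ID 407831, chr17:25057702-25081114), a membrane protein of endothelial junctions, was at 8.95 ± 0.159 CPM (SD, n = 4) in F1 saline and at 12.4, 10.9 and 14.4 CPM in F1 METH mice. The Tmem204 level in F2 was 7.02 ± 0.636 CPM in saline (SD, n = 4) and 5.86 ± 0.260 CPM in METH mice (SD, n = 4), and F2 saline replicate 2, at 6.11 CPM, lay within the METH range. The effects of Tmem204 were 0.49 (SE 0.11) and -0.26 (SE 0.10).

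Aldh1a1, a retinaldehyde dehydrogenase, had effects of 0.36 (SE 0.19) and -0.65 (SE 0.17). Its F2 levels of 11.7 to 16.9 CPM in saline and 8.17 to 10.53 CPM in METH mice did not overlap. Oxsr1, a kinase that controls chloride cotransporters, had effects of 0.23 (SE 0.064) and -0.14 (SE 0.059). Scel, encoding the cornified envelope precursor sciellin, had effects of 0.73 (SE 0.21) and -0.55 (SE 0.20) at a level of 1.65 to 5.25 CPM.

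For Prom1 and Ephx1 the F2 effect was close to 0. Prom1 (ID 19126, chr5:43993621-44102047), the membrane glycoprotein prominin, was at 21.8 to 26.4 CPM in F1 saline, 32.8 to 41.7 CPM in F1 METH, 24.5 to 27.2 CPM in F2 saline and 22.2 to 29.6 CPM in F2 METH mice. The Prom1 effect in F2 was -0.046 (SE 0.097), less than its error, against 0.64 (SE 0.10) in F1. Ephx1, microsomal epoxide hydrolase, had an F2 effect of -0.0064 (SE 0.086) beside an F1 effect of 0.50 (SE 0.092). Ror1, a receptor for Wnt ligands, had an F1 effect of 0.93 (SE 0.22) and an F2 effect of -0.35 (SE 0.21).

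**Figure D2:**
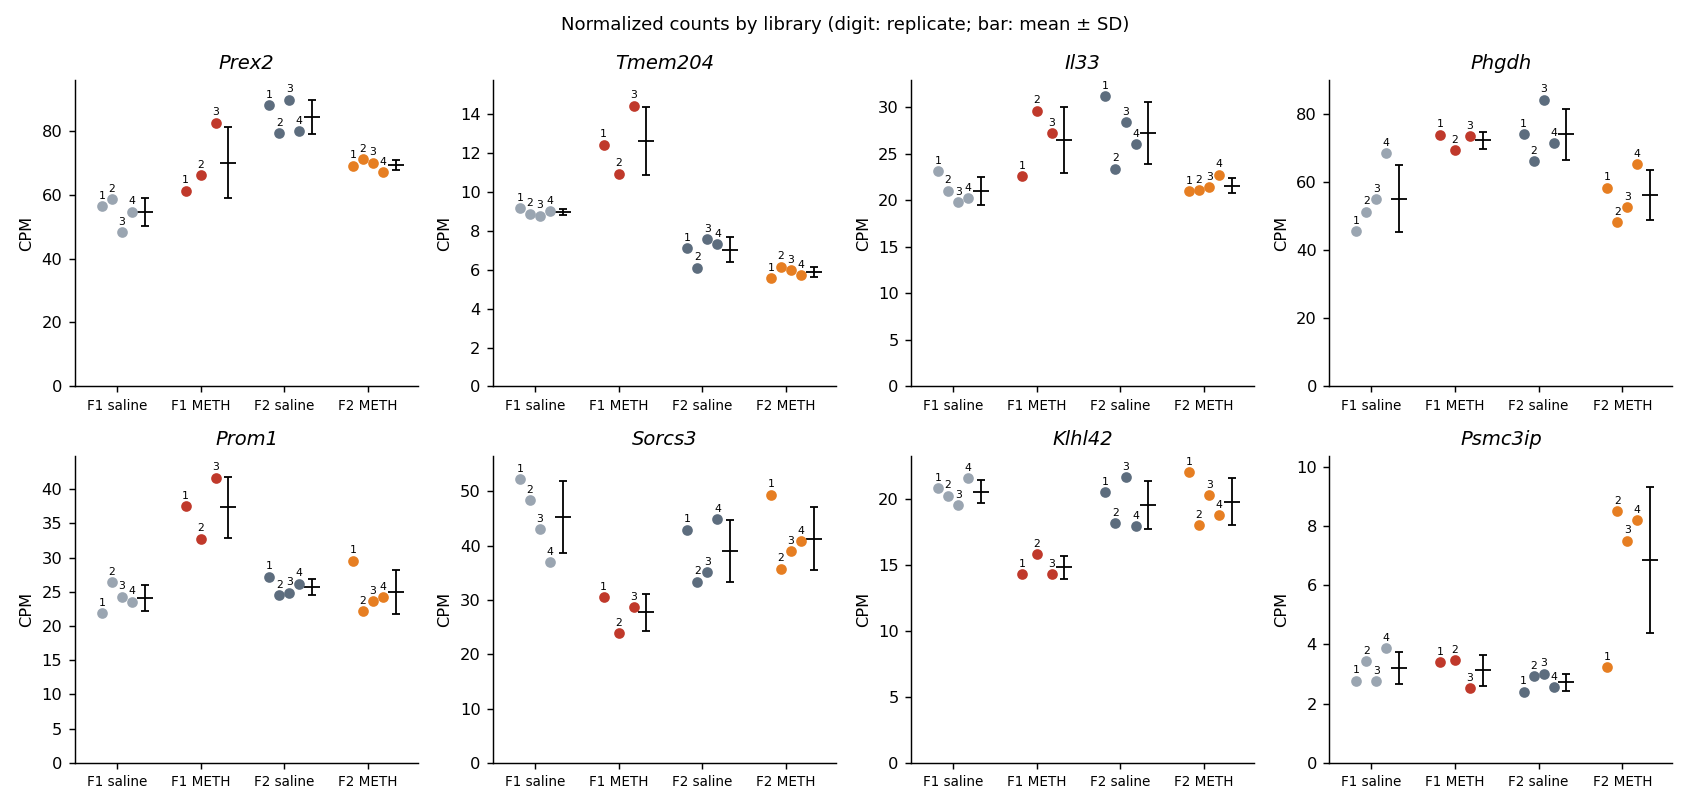
Normalized counts per library in CPM (y axis, from 0) of 8 genes in the 4 groups, with the replicate number above each point and the mean ± SD beside each group. Prex2 and Phgdh are apart in both generations, Prom1, Sorcs3 and Klhl42 in F1 alone, and Psmc3ip in F2 alone, where METH replicate 1 (3.22 CPM) lies near the saline libraries.

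In the reverse direction, lower in F1 METH and higher in F2 METH mice, the differences lay mostly on the F1 side. Sorcs3 (ID 66673, chr19:48206025-48805505), a sorting receptor of neurons, was at 52.3, 48.4, 43.1 and 37.0 CPM in F1 saline and 30.6, 23.9 and 28.7 CPM in F1 METH mice, which did not overlap. F2 levels of Sorcs3 overlapped, with 33.4 to 44.9 CPM in saline and 35.8 to 49.4 CPM in METH mice, and its effects were -0.70 (SE 0.14) and 0.078 (SE 0.13). Klhl42, an adaptor of a cullin ubiquitin ligase, Prkca, encoding protein kinase C alpha, and Fam78b had the same form, with F1 effects of -0.47, -0.32 and -0.25 and F2 effects of 0.016, 0.054 and 0.086.

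The RNA-binding protein gene Mex3b was at 17.0 to 18.1 CPM in F1 saline, 12.5 to 13.7 CPM in F1 METH, 19.8 ± 0.596 CPM in F2 saline (SD, n = 4) and 25.5, 16.8, 21.5 and 26.1 CPM in F2 METH mice. Its F2 METH replicate 2 lay below all F2 saline libraries while the other replicates lay above them. Amer3, Tspyl3 and Pxylp1, a phosphatase of proteoglycan synthesis, had F1 effects of -0.32, -0.31 and -0.55 and F2 effects of 0.13, 0.11 and 0.21.

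Psmc3ip (gene ID 19183, chr11:101092141-101095435), a cofactor of meiotic recombination, lay apart on the F2 side. It was at 2.75 to 3.88 CPM in F1 saline, 2.53 to 3.47 CPM in F1 METH and 2.41 to 3.02 CPM in F2 saline mice. In F2 METH mice Psmc3ip was at 3.22, 8.52, 7.51 and 8.21 CPM, so that 3 of 4 libraries were high and replicate 1 was near the saline range. Its effects were -0.034 (SE 0.27) and 1.33 (SE 0.25). Dynlt1a, a dynein light chain gene with near-identical copies beside it that make its level uncertain, had effects of -0.26 (SE 0.18) and 0.64 (SE 0.17). Spats1, named for its expression in spermatogenesis, was at 2.25 ± 0.113 and 1.58 ± 0.576 CPM in F1 saline and METH mice and at 1.53 ± 0.143 and 2.37 ± 0.492 CPM in F2 saline and METH mice (SD; n = 4, 3, 4 and 4). For all 24 genes with the smallest p, 12 per direction, edgeR's adjusted p of the difference was 0.854. The difference kept its sign in each alternative that was run, but these genes were chosen by its p in the same libraries. The kept sign is therefore no separate support, and it does not cover the signs of the single effects.

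An unadjusted p under 0.05 in both generations with opposite signs was found for 46 of the 15230 well expressed genes. In single generations, 6.31% of the well expressed genes had such a p in F1 and 4.37% in F2. In F1 alone the same test called 1 gene at an adjusted p under 0.05 (0.00518%), again Aox4, with 1112 genes at an unadjusted p under 0.05 (5.76%). In F2 alone it called 0 (0%), with 808 at an unadjusted p under 0.05 (4.18%), and DESeq2 called 5. Of the 46 genes, 44 were higher in F1 METH and lower in F2 METH mice. The other two were Spats1 and Cntnap3, a cell adhesion gene with effects of -0.37 (SE 0.15) and 0.30 (SE 0.14). Among well expressed genes of like sign there were 17 with such a p in both generations. Genes of the same libraries are not independent replicates, and the counts of 46 and 17 were not compared by a test. In 8 genes of opposite sign (0.0525% of the well expressed genes) the METH and saline groups did not overlap in either generation, and in 7 genes (0.046%) they did not overlap and differed in the same direction. In single generations the groups did not overlap for 5.59% of these genes in F1 and 2.71% in F2. Of the 8 genes, those higher in F1 METH and lower in F2 METH mice were Prex2, Phgdh, Kank2, Cdc42ep4, Rbm41, Parp14 and Nle1 (0.046%). Kank2, encoding an adaptor that binds talin, was at 11.8 ± 0.802 and 13.3 ± 0.290 CPM in F1 saline and METH mice and at 13.998 ± 0.140 and 12.0 ± 0.255 CPM in F2 (SD; n = 4, 3, 4 and 4). Cdc42ep4, an effector of the GTPase Cdc42, had effects of 0.17 (SE 0.073) and -0.21 (SE 0.068), and the RNA-binding protein gene Rbm41 effects of 0.23 (SE 0.098) and -0.22 (SE 0.091). Cmtr1, a methyltransferase that acts on the mRNA cap, was the gene of the reverse direction (0.00657%), with effects of -0.15 (SE 0.059) and 0.090 (SE 0.055). Of these 8 genes, all but Prex2, Phgdh and Parp14 were chosen after their values were seen, as was Cntnap3.

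Most markers of oligodendrocytes, astrocytes, microglia and endothelium had higher levels in F1 METH and lower levels in F2 METH mice, and edgeR's test of the difference called none of them. DESeq2 called 1 gene of the glial lists, Prom1, which is on the list of oligodendrocyte precursors. The lists are described by counts and medians beside those of all genes tested, of which 25.3% had this pair of signs and whose median effects were -0.0089 in F1 and -0.015 in F2. In bulk tissue, fewer cells of a type and less RNA per cell cannot be told apart. The genes of a list come from the same libraries and are not independent replicates, so their counts are a description only. Of 26 tested oligodendrocyte and myelin genes, 25 were higher in F1 METH and lower in F2 METH mice (96.2%), with median effects of 0.24 and -0.14 and a median difference of -0.37. An unadjusted p under 0.05 was found for 5 of them, against 3.16% of all genes in this direction. Among these, Mobp, a structural protein of compact myelin, was at 1083, 1072, 1187 and 1549.7 CPM in F1 saline and 1374, 1717 and 1853 CPM in F1 METH mice. In F2, Mobp was at 1898, 1295, 1796 and 1226 CPM in saline and 1285, 1445, 1432 and 1259 CPM in METH mice. F2 saline replicates 1 and 3 were high and replicates 2 and 4 lay in the range of the METH libraries or below it. Of 18 genes of oligodendrocyte precursors and premyelinating cells, 10 had this pair of signs (55.6%), and their median F1 effect of 0.035 turned to -0.02 on the scale of TPM + 1. Bcas1, of early myelinating oligodendrocytes, had effects of 0.47 (SE 0.13) and -0.21 (SE 0.12) and no overlap between the F1 groups.

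Of 22 astrocyte markers, 18 were higher in F1 METH and lower in F2 METH mice (81.8%), with median effects of 0.18 and -0.19, and 12 of the 22 had an unadjusted p under 0.05 for the difference. These 12 included the glutamate transporters Slc1a2 and Slc1a3 and the gap junction gene Gjb6, which were chosen for naming after their values were seen. Aldoc, the brain aldolase, was at 634, 647, 636 and 639 CPM in F1 saline and 680.2, 639 and 854 CPM in F1 METH mice. Its F2 levels were 706, 654, 702 and 580.0 CPM in saline and 551 to 564 CPM in METH mice, so only the F2 groups were apart. Aldoc had a difference of -0.42 (SE 0.12; edgeR adjusted p = 0.887). The claudin gene Cldn10 and the serine and glycine transporter Slc7a10 had differences of -0.49 (SE 0.14) and -0.52 (SE 0.15).

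Of 22 microglia and macrophage markers, 18 had the same pair of signs (81.8%), with median effects of 0.17 and -0.17 and 6 at an unadjusted p under 0.05. The 3 chains of complement C1q were all among those 6. C1qc was at 21.8 to 24.04 CPM in F1 saline and 22.1, 23.4 and 32.7 CPM in F1 METH mice, and at 26.1, 29.0, 30.9 and 14.7 CPM in F2 saline and 14.3 to 18.6 CPM in F2 METH mice. F1 METH replicate 3 was the only F1 METH library above the F1 saline range, and F2 saline replicate 4 lay with the F2 METH libraries. C1qa, C1qb and C1qc had F1 effects of 0.15, 0.19 and 0.19 and F2 effects of -0.38, -0.38 and -0.60.

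Of 22 endothelial and blood-brain barrier genes, 15 were higher in F1 METH and lower in F2 METH mice (68.2%), with median effects of 0.21 and -0.13, and 9 had an unadjusted p under 0.05. Ly6c1, a surface protein of brain endothelium, was at 35.3, 33.7, 32.3 and 38.6 CPM in F1 saline and 38.3, 43.4 and 42.8 CPM in F1 METH mice. In F2, Ly6c1 was at 28.5, 24.6, 24.4 and 19.03 CPM in saline and 20.3, 20.01, 15.1 and 17.8 CPM in METH mice, and 1 library made the groups overlap in each generation. Mfsd2a, the lipid transporter that keeps barrier transcytosis low, had effects of 0.36 (SE 0.15) and -0.36 (SE 0.14). The thyroid hormone transporter Slco1c1 had effects of 0.19 (SE 0.11) and -0.34 (SE 0.099). Pericyte and smooth muscle genes differed in pattern from the endothelial ones in count, with 3 of 15 of this pair of signs and 10 higher in METH mice of both generations; the difference between the lists was not tested.

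**Figure D3:**
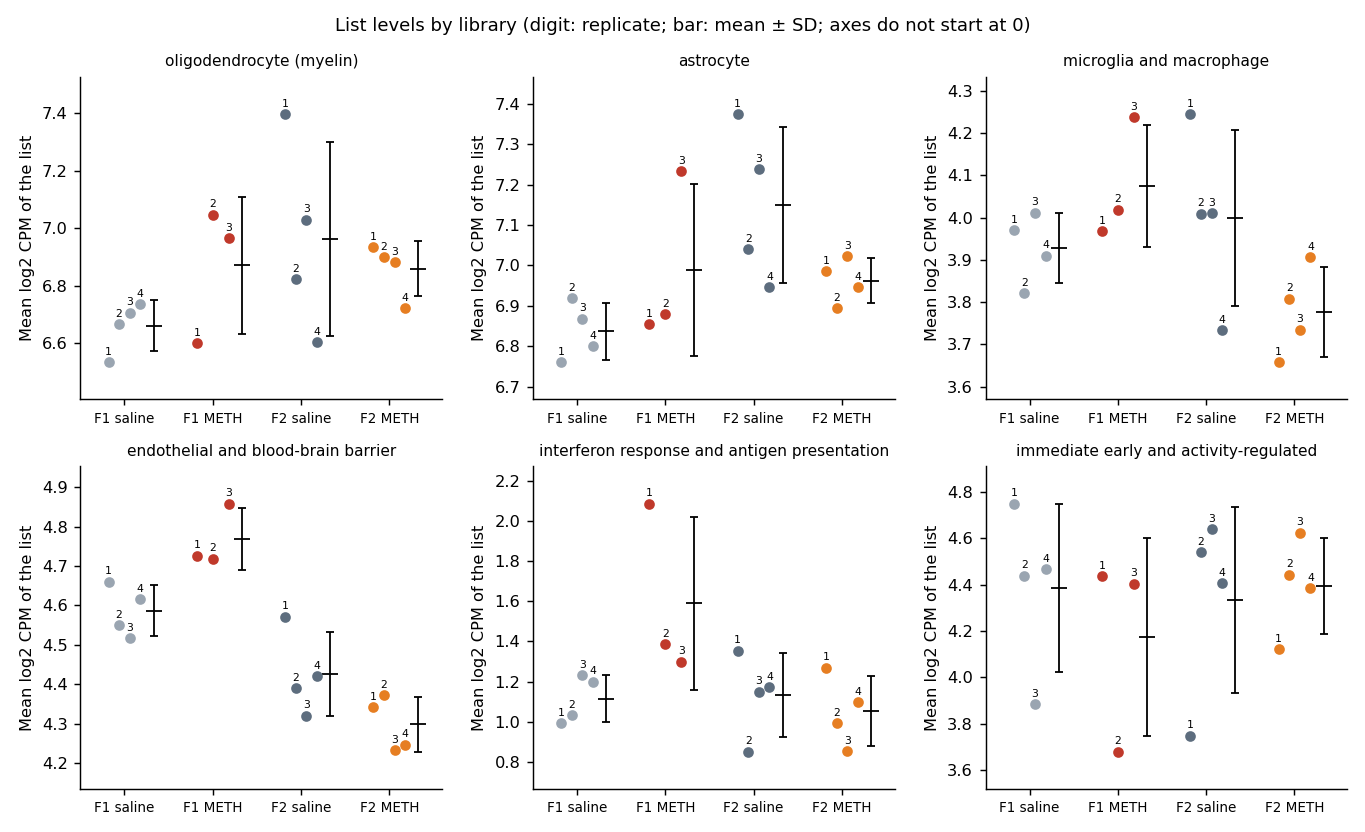
Mean log2 CPM of 6 gene lists (y axes, which do not start at 0) in each library, with the replicate number above each point and the mean ± SD beside each group. For the oligodendrocyte and astrocyte lists F2 saline replicate 1 (7.40 and 7.37) is the highest library, and for the interferon list F1 METH replicate 1 (2.09) is above all other libraries.

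Single libraries carried part of these list values. The oligodendrocyte list mean was 7.40 log2 CPM in F2 saline replicate 1, above the other 14 libraries (6.53 to 7.05). Without that library the count of oligodendrocyte genes higher in F1 METH and lower in F2 METH mice went from 25 to 8, and the median difference from -0.37 to -0.18. Without F1 METH replicate 3, the highest F1 library for the astrocyte, microglia and endothelial lists, the microglia count went from 18 to 10 and that of the precursor list from 10 to 5. The median differences without it were -0.23 for astrocytes and -0.072 for precursors, and without F2 saline replicate 1 that of precursors was -0.086. On the scale of TPM + 1 the median difference was -0.23 for oligodendrocyte genes and -0.20 for microglia genes, against -0.35 for the latter in counts. On that of TPM + 0.1 these values were -0.24 and -0.25. Median differences of the oligodendrocyte, astrocyte, microglia and endothelial lists kept their sign in all 29 alternatives, including each library left out. All alternatives used these same libraries, and the lists were chosen with earlier results of these data known. The kept sign is therefore no separate support. F1 METH replicate 3 and F2 saline replicate 4 also had much cortical signal, and the cortical markers as a list had median effects of -0.30 in F1 and -0.013 in F2, with 0 of 27 at an unadjusted p under 0.05. Their summed level was 841 to 2045 CPM in F1 saline, 921 to 1559 CPM in F1 METH, 819 to 1278 CPM in F2 saline and 949 to 1153 CPM in F2 METH mice. With the cortical marker mean as a covariate the median differences were -0.33 for oligodendrocyte, -0.39 for astrocyte, -0.40 for microglia and -0.32 for endothelial genes.

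Genes induced by interferons and genes of antigen presentation had a median difference of -0.47, with a median effect of 0.42 in F1 and -0.068 in F2. Of 46 tested, 27 were higher in F1 METH and lower in F2 METH mice (58.7%) and 14 were higher in METH mice of both generations. An unadjusted p under 0.05 was found for 14 in the negative direction and for 1, Gbp6 (named after its value was seen), in the positive one, and 11 of the 15 were well expressed and of opposite sign. Over all genes tested, 3.16% had such a p in the negative and 1.72% in the positive direction. Ifih1 (gene ID 71586, chr2:62595618-62646255), the cytosolic sensor of long double-stranded RNA, was at 1.73, 1.94, 2.14 and 1.63 CPM in F1 saline and 3.31, 2.099 and 3.13 CPM in F1 METH mice. Its F2 levels were 1.68, 1.33, 2.23 and 1.99 CPM in saline and 1.21, 0.998, 1.41 and 0.890 CPM in METH mice. In each generation 1 library lay just inside the range of the other group, F1 METH replicate 2 and F2 saline replicate 2. Ifih1 effects were 0.61 (SE 0.23) and -0.69 (SE 0.22), a difference of -1.30 (SE 0.31; edgeR adjusted p = 0.854). Parp14, an ADP-ribosyltransferase, was apart in both generations, with 2.36 ± 0.313 and 3.15 ± 0.474 CPM in F1 saline and METH mice and 3.39 ± 0.543 and 2.67 ± 0.120 CPM in F2 (SD; n = 4, 3, 4 and 4). Gbp5, a guanylate-binding protein of cell-autonomous defence, was at 1.35 to 2.09 CPM in F1 saline and 6.34, 4.07 and 2.29 CPM in F1 METH mice. Its F2 effect was -0.13 (SE 0.29), so the sign in F2 was not distinguishable from 0. The guanylate-binding proteins form a gene family with close copies, and reads may be split between them.

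F1 METH replicate 1 was the highest library for the interferon list, at a mean of 2.09 log2 CPM against 1.39 and 1.30 in F1 METH replicates 2 and 3 and 0.99 to 1.23 in F1 saline. Without it the count went from 27 to 21 and the median difference to -0.38, and without F2 METH replicate 3 they were 21 and -0.44. The F2 groups overlapped widely, with 0.85 to 1.35 in saline and 0.86 to 1.27 in METH mice. On the scale of TPM + 1 the median difference of the list was -0.27, and on that of TPM + 0.1 it was -0.46.

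Interferons act through the interferon-stimulated response element, a promoter site bound by the complex of STAT and IRF proteins. The letters searched were GAAA, any 2 bases, then GAAA, on both strands of RefSeq promoters of assembly GRCm38.p6 (250 bases before to 50 after each start). A match was present for 3.63% of 14132 tested genes with a promoter in the table, and for 22 of 35 genes of the interferon list (62.9%). It was present for 10 of 19 well expressed list genes that were higher in F1 METH and lower in F2 METH mice (52.6%). Among tested list genes that were not both well expressed and of opposite sign, it was present for 11 of 14 (78.6%). Of the 11 genes of opposite sign with an unadjusted p under 0.05, 8 had a promoter in the table and 5 of these held the letters. Those of Ifih1 and Gbp5 are shown with the match in capitals, because these genes had the smallest p of the 5, and that of Igtp, an interferon-inducible GTPase, because its match lies closest before the start site. Ifih1 lies on the minus strand (chr2:62646206-62646505), and its match begins 32 bases after the start. Gbp5 lies on the plus strand (chr3:142496684-142496983) with a match that reads on the opposite strand and begins 165 bases before the start. Igtp lies on the plus strand (chr11:58199306-58199605) with the match 34 bases before the start. A match describes letters and not a bound site.
Ifih1: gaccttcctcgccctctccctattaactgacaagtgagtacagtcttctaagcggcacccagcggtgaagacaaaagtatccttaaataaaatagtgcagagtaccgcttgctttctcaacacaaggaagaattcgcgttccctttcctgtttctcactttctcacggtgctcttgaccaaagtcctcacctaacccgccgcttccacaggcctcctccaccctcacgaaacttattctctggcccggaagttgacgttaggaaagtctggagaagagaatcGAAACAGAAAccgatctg
Gbp5: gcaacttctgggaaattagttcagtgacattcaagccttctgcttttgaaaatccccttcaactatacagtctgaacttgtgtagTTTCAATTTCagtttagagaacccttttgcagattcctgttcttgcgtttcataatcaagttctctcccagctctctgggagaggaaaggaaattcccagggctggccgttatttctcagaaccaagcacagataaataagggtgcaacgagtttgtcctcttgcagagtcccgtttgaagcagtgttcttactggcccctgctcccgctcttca
Igtp: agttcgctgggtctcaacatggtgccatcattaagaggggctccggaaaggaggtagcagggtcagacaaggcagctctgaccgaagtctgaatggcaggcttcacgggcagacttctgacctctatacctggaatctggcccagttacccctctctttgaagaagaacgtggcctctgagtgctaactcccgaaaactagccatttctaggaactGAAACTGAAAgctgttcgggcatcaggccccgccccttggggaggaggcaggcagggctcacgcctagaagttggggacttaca

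Immediate early genes, which neurons switch on within minutes of firing, tended the other way. Of 45 tested, 21 were lower in F1 METH and higher in F2 METH mice, a pair of signs found for 22.9% of all genes tested. The reverse held for 3 (6.67%, against 25.3% of all genes tested). Another 16 were lower and 5 were higher in METH mice of both generations. The median effects were -0.17 and 0.020. An unadjusted p under 0.05 for the difference was found for 2 of the 45 in the positive and 0 in the negative direction. Among all genes tested, 1.72% had such a p in the positive and 3.16% in the negative direction. Fos was at 32.2, 33.7, 10.8 and 44.1 CPM in F1 saline and 19.5, 6.53 and 14.7 CPM in F1 METH mice, and at 14.98, 42.9, 39.1 and 27.8 CPM in F2 saline and 32.9 to 40.9 CPM in F2 METH mice. The lowest libraries of the saline groups were F1 replicate 3 and F2 replicate 1, and the groups overlapped in both generations. Its effects were -1.16 (SE 0.43) and 0.22 (SE 0.38). Btg2, an antiproliferative gene induced with Fos, had effects of -0.88 (SE 0.31) and 0.32 (SE 0.28). Without F2 saline replicate 1 the count of 21 went to 5, and without F2 METH replicate 3 to 13. The median difference of 0.13 ran from 0.027 to 0.29 with single libraries left out and was -0.054 with the label's animal number as a block.

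Clock genes are transcribed in daily cycles, and the hour of dissection is not given in the sources used here. Of 23 tested, 11 were of opposite sign, which is close to the 48% of all well expressed genes. The repressor gene Per2 was at 93.8, 65.4, 50.5 and 68.8 CPM in F1 saline and 125, 79.4 and 128 CPM in F1 METH mice, and at 47.4, 100.1, 129 and 64.0 CPM in F2 saline and 44.2, 52.3, 77.4 and 77.3 CPM in F2 METH mice. Its F2 saline libraries alone covered nearly the whole range of the others. The Per2 effects were 0.67 (SE 0.31) and -0.44 (SE 0.29). Npas2, a forebrain activator of the clock, had effects of -0.28 (SE 0.086) and 0.11 (SE 0.079).

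Glucocorticoid responsive genes are induced by the adrenal hormone corticosterone in mice. Of 26 tested, 19 were higher in F1 METH and lower in F2 METH mice (73.1%), with median effects of 0.20 and -0.084 and 7 at an unadjusted p under 0.05. All 7 were in the negative direction, as were 3.16% of all genes tested. Fam107a, an actin-binding stress gene that astrocytes express strongly, was at 249.9, 191, 214 and 248 CPM in F1 saline and 262, 236 and 378 CPM in F1 METH mice. In F2, Fam107a was at 316, 262, 308 and 201 CPM in saline and 184 to 211 CPM in METH mice. F1 METH replicate 3 was the highest of all 15 libraries, and F2 saline replicate 4 lay within the METH range. Its difference was -0.82 (SE 0.22; edgeR adjusted p = 0.854). Tsc22d3, encoding the glucocorticoid-induced leucine zipper, had effects of 0.32 (SE 0.21) and -0.53 (SE 0.20). Mertk, a receptor with which astrocytes and microglia engulf debris, had effects of 0.24 (SE 0.11) and -0.23 (SE 0.10). Without the 5 libraries with Slc17a7 above 100 CPM the median difference of the list was -0.20, against -0.32.

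Genes of cholesterol synthesis and uptake had 19 of 26 members higher in F1 METH and lower in F2 METH mice (73.1%), with median effects of 0.063 and -0.14. Mvd, which makes isopentenyl diphosphate, was at 19.1 ± 1.04 CPM in F1 saline (SD, n = 4), 20.4 ± 2.27 CPM in F1 METH (SD, n = 3), 17.9 ± 1.44 CPM in F2 saline (SD, n = 4) and 14.7 ± 0.303 CPM in F2 METH mice (SD, n = 4). Only its F2 groups were apart. Msmo1, a sterol oxidase, had effects of 0.22 (SE 0.11) and -0.24 (SE 0.099). Without F1 METH replicate 3 the count of 19 went to 8 and the median difference from -0.20 to -0.090, and without the 5 libraries with Slc17a7 above 100 CPM they were 9 and -0.045. On the scale of TPM + 1 the count was 10.

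**Figure D4:**
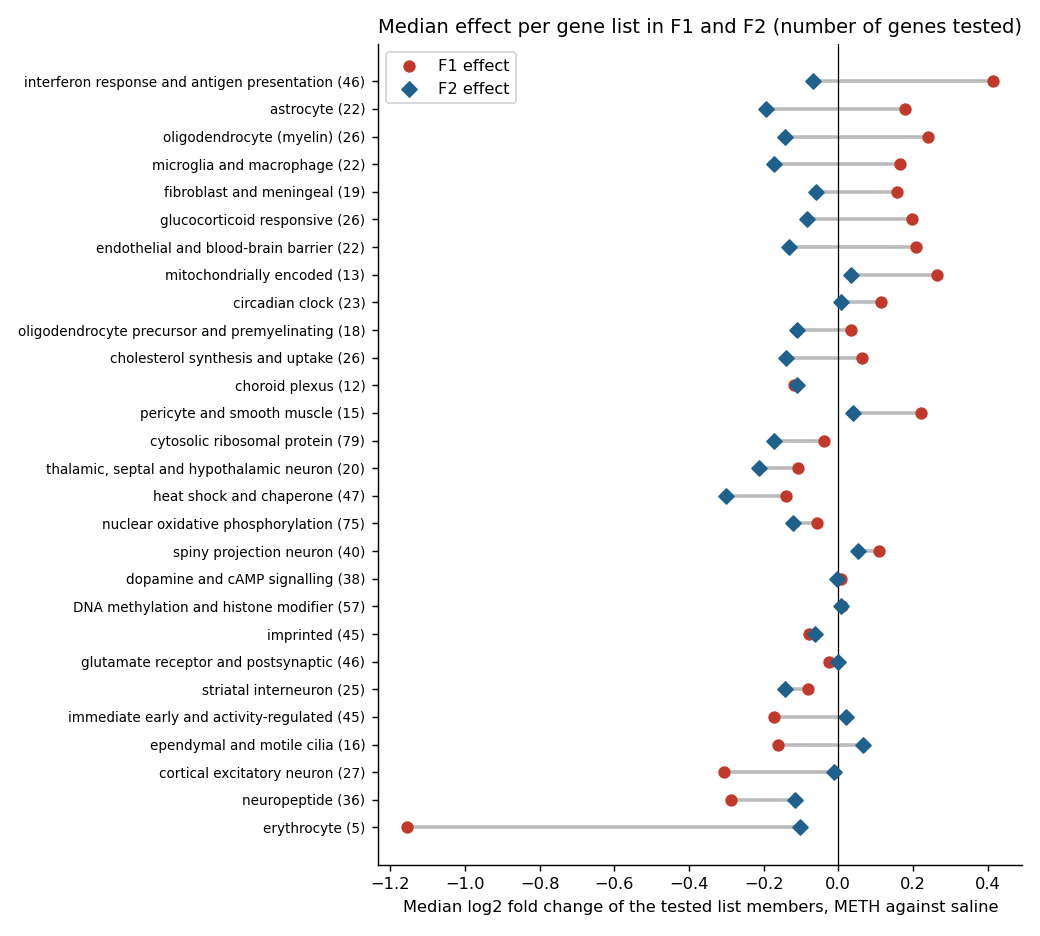
Median log2 fold change of METH against saline over the tested members of 28 gene lists, in F1 (circles) and F2 (diamonds), ordered by the median difference with the most negative at the top. The interferon, astrocyte, oligodendrocyte, microglia and endothelial lists lie to the right of 0 in F1 and to the left in F2, while the dopamine, glutamate receptor and histone modifier lists lie near 0 in both.

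Of 47 heat shock and chaperone genes, 38 were lower in METH mice of both generations, and 8 were of opposite sign (17%), against 48% of the well expressed genes. All 8 were higher in F1 METH and lower in F2 METH mice. Xbp1, a transcription factor of the unfolded protein response, was at 55.4 to 64.9 CPM in F1 saline and 63.1 to 67.3 CPM in F1 METH mice. F2 saline libraries were at 59.9, 113, 85.3 and 52.3 CPM and F2 METH libraries at 50.4 to 55.6 CPM, with replicates 2 and 3 of the saline group high. Xbp1 effects were 0.12 (SE 0.18) and -0.57 (SE 0.17). The small heat shock gene Hspb1 had effects of 0.036 (SE 0.30) and -1.04 (SE 0.28), and Manf, a secreted factor of the endoplasmic reticulum, 0.020 (SE 0.18) and -0.62 (SE 0.17). Without F2 saline replicate 2 the difference went from -0.68 to -0.45 for Xbp1 and from -0.64 to -0.39 for Manf. Without replicates 2 and 3 of that group it was -0.22 for Xbp1, -0.29 for Manf and -0.67 for Hspb1 (-1.08 with all libraries), and the median difference of the list turned from -0.12 to 0.045.

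All 13 mitochondrially encoded genes were higher in F1 METH mice, and 5 of them were lower in F2 METH mice, a count that ran from 1 to 10 with single libraries left out. Their share of all counts was 6.64% to 7.40% in F1 saline, 7.84% to 8.53% in F1 METH, 6.10% to 7.15% in F2 saline and 5.99% to 7.51% in F2 METH mice, so that it was apart in F1 and overlapped in F2. ATP8, the smallest mitochondrial subunit of the ATP synthase, had effects of 0.29 (SE 0.089) and -0.076 (SE 0.083). Nuclear genes of oxidative phosphorylation had 20 of 75 of opposite sign and ribosomal protein genes 15 of 79, against 48% of the well expressed genes.

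Neuronal lists differed among themselves. Of 40 spiny projection neuron genes 6, of 38 genes of dopamine and cAMP signalling 16, and of 46 glutamate receptor and postsynaptic genes 22 were of opposite sign, the last pair being close to the 48% of all well expressed genes. They had 0, 1 and 0 genes at an unadjusted p under 0.05 in the negative direction, against 3.16% of all genes tested. The median differences were -0.056, -0.026 and 0.037, and their sign did not hold in all alternatives. The list of neuropeptides and other secreted factors had a median difference of 0.25 over 36 genes, with median effects of -0.29 in F1 and -0.12 in F2. This value kept its sign in all 29 alternatives and ran from 0.036 to 0.48 with single libraries left out. With the cortical marker mean as a covariate the value fell from 0.25 to 0.050. As for the glial lists, the kept sign is no separate support. An unadjusted p under 0.05 was found for 3 of the 36 genes in the positive and 1 in the negative direction. The shares of all genes tested were 1.72% and 3.16%. Ddc, which makes dopamine from its precursor, was the 1 gene of the dopamine list, at 5.30 ± 0.510 and 7.26 ± 1.52 CPM in F1 saline and METH mice and 4.95 ± 0.449 and 4.80 ± 0.519 CPM in F2 (SD; n = 4, 3, 4 and 4). Among 57 genes of DNA methylation and histone modification, 24 were of opposite sign, beside 48% of the well expressed genes, and the median difference was -0.0024. Eed, a subunit of Polycomb repressive complex PRC2, had an unadjusted p under 0.05 with effects of -0.066 (SE 0.091) and 0.22 (SE 0.084). The imprinted growth factor gene Igf2, made in the meninges and vessels of the adult brain, had effects of 0.39 (SE 0.14) and -0.23 (SE 0.13). Scg2, a granin of dense-core vesicles, had effects of -0.50 (SE 0.20) and 0.13 (SE 0.18).

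**Figure D5:**
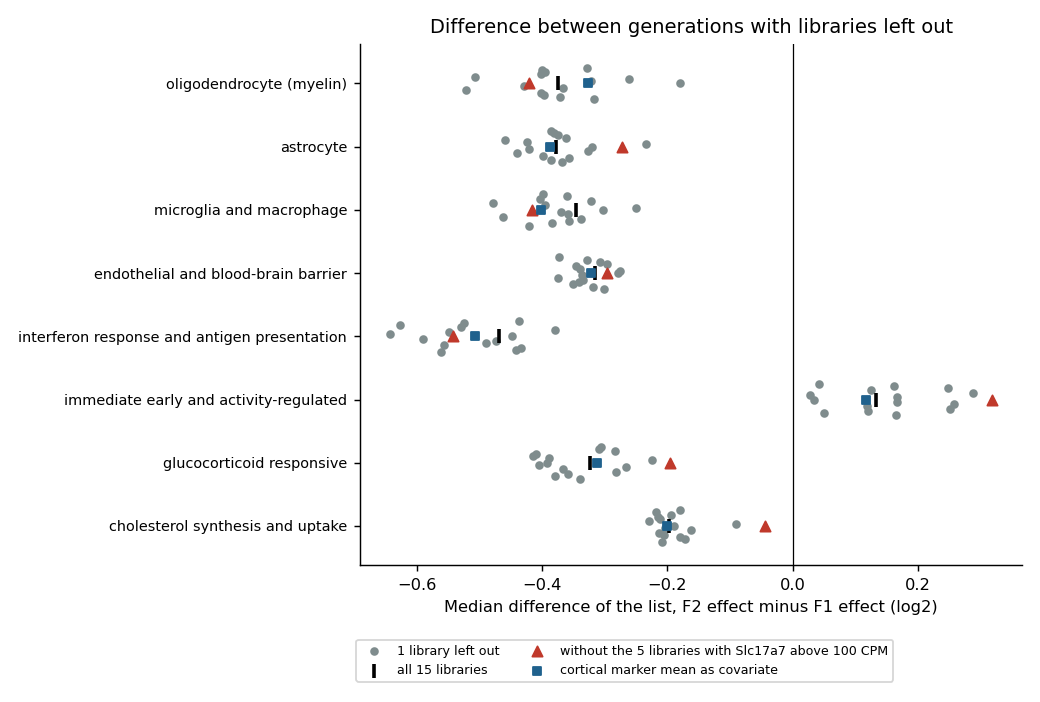
Median difference between the F2 and F1 effects (x axis, log2) of 8 gene lists with all 15 libraries (black bar), with each library left out (grey points), without the 5 libraries with Slc17a7 above 100 CPM (triangles) and with the cortical marker mean as a covariate (squares). Points of the glial, endothelial, interferon and glucocorticoid lists stay below 0, and the oligodendrocyte list comes to -0.18 without F2 saline replicate 1.

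Aox4 (ID 71872, chr1:58210397-58268600), an aldehyde oxidase gene that lies beside close paralogs, was the gene that edgeR called, and with a mean of 0.404 CPM it is not among the well expressed genes. Summed over each group, it had 94 reads in the 4 F1 saline, 0 in the 3 F1 METH, 70 in the 4 F2 saline and 67 in the 4 F2 METH libraries. With the 0 set to a floor of 3 counts for the whole group, F1 METH mice were at least 22.1-fold lower than F1 saline mice, whereas the F2 groups overlapped, with a fitted F2 effect of 0.031 (SE 0.37). The edgeR adjusted p of the difference was 0.0317. The call was lost in fits that left out 1 library, with the exception of F1 saline replicate 2 (0.0335), where the adjusted p over these fits ran up to 0.156. Over all alternatives in which it was given, it ran from 0.00364 in DESeq2 to 0.961. The bound covers counting error only.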

How the data were processed

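Striatal RNA of 15 mice was measured by RNA sequencing. Each of the 2 deposited tables, one per generation, gives read counts, FPKM and TPM per gene and library. The submitters' processing notes name HISAT2 2.1.0, StringTie 2.1.3b, Trimmomatic and bcl2fastq 2.20.0 with build mm10, and how read counts were derived, and whether by strand, is not given in the sources used here. Per the file headers, the counts are raw read counts that the authors made per gene. FPKM, the authors' deposited values, served no test. TPM, also deposited by the authors, served alternatives with a pseudocount of 1 or 0.1. All 45 value columns matched a sample.

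Tables were joined by gene ID. In R 4.3.3, edgeR 4.0.16 fitted 1 mean per group over all libraries (TMM, filterByExpr with a minimum count of 10, quasi-likelihood test, Benjamini-Hochberg adjustment over all genes tested). CPM used TMM-scaled totals. The SE of a log2 fold change was its size divided by the root of F. DESeq2 1.42.0 and limma 3.58.1 gave alternatives, as did other filters, blocks, covariates and each library left out. The test was also run on simulated counts with known changes, which checks the code and not how the test does in these data. Of 21 replicate pairs, 0 agreed within sampling noise (chi-square per degree of freedom 15.6 to 63.8).

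Named genes were the 12 per direction with the smallest unadjusted p (predicted genes, clones, pseudogenes and noncoding loci left out), up to 3 of opposite sign per gene list with an unadjusted p under 0.05, and Slc17a7; some of these are not reported here. The members, the 28 gene lists (891 of 923 memberships tested) and the alternatives were chosen with earlier results of these data known. Counts of overlapping genes, antisense genes and near-identical copies are uncertain. Figures used Python 3.11.15 and matplotlib 3.10.9.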

Additional observations from a re-analysis of the deposited data

Results flagged for a closer look

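In groups of 4 libraries, 1 library lay far from the other three in 5 of 219 groups of named genes and in 3 of 84 groups of gene lists, and chance alone does this in about 1 group in 20. Ror1 was at 3.91 CPM in F1 saline replicate 3, above the rest of its group. Aldh1a1 was at 7.16 CPM in F1 saline replicate 4, below the rest, and at 10.53 CPM in F2 METH replicate 2, above the rest. Manf was at 16.6 CPM in F2 METH replicate 3 and Tsc22d3 at 49.6 CPM in F1 saline replicate 3, both below the rest. Among the lists, the mean log2 CPM of dopamine and cAMP signalling was 7.52 in F1 saline replicate 3. That of glutamate receptor and postsynaptic genes was 6.87 in F2 METH replicate 1. That of DNA methylation and histone modifier genes was 5.70 in F2 METH replicate 3.

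The METH effect on Aox4 differed between the generations by the test of the difference itself (edgeR adjusted p = 0.0317). This gene lies below the level limit, at a mean of 0.404 CPM, and the call was lost in 22 of 29 alternatives.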

How the results depend on the processing

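For the difference between generations, edgeR called 1 gene, Aox4, and DESeq2 called 7. It called 0 with limma-voom, with a filter on a mean of at least 1 CPM, on TPM + 1, on TPM + 0.1, with the replicate block (title number), with the label-number block, with the cortical marker mean as a covariate, without the libraries with Slc17a7 above 100 CPM and without F2 saline replicates 2 and 3. With each library left out it called 0 to 2 genes, the 2 being Aox4 and Tigit without F1 saline replicate 2. The F1 effect had 1 call, 13 in DESeq2 and 0 with limma-voom, the CPM filter, TPM + 1, TPM + 0.1, its own table alone, the replicate block and without the libraries with Slc17a7 above 100 CPM, and 0 to 2 with each library left out. The F2 effect had 0 calls, 5 in DESeq2, and 0 to 1 with each library left out. The cause of these changes was not tested.

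The count of 7307 genes of opposite sign ran from 6937 to 7692 with each library left out, was 7080 with the replicate block and 5627 at a mean of at least 5 CPM. The genes themselves changed more than their number: of the 7307, 5699 were also of opposite sign without F1 METH replicate 3, 5965 without F1 METH replicate 2, 5371 without the libraries with Slc17a7 above 100 CPM and 5696 without F2 saline replicates 2 and 3. The 73 named genes kept the sign of the difference in each alternative run. All but Slc17a7 were chosen by a small p in the same libraries, so the kept sign is no separate support. In deviations from group means, same-numbered METH and saline libraries correlated at -0.0711 to 0.352, and label numbers shared between generations at -0.159 to 0.0662. The value of 0.352 was that of replicate 3 of F1 saline and F1 METH, with Slc17a7 at 529 and 394 CPM. Such correlations cannot show whether like-numbered animals were related.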
